A study of Mus musculus with 12 samples.

Results

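Transcripts of 6 chemokine genes, Ccl1, Ccl3, Ccl4, Ccl5, Ccl9 and Xcl1, were measured by RNA sequencing in mouse natural killer (NK) cells. The members were taken by gene symbol, and each symbol matched 1 feature, so the set held 6 of the 55487 features in the table. The mice were of the strain B6.129S4-Ifngtm3.1Lky/J, homozygous (mut/mut in the labels) for a reporter of yellow fluorescent protein (YFP) placed at Ifng, which encodes interferon gamma, and all 12 samples carry HD IL-15 in their names; IL-15 is a cytokine that sustains NK cells. The groups were 4 unstimulated samples, 4 YFP- samples taken 6 h after stimulation with an antibody against the activating receptor NK1.1 (anti-NK1.1), and 4 YFP+ samples from the same stimulation. Samples in each group are named f2, m2, m3 and m4. The labels do not expand HD and give no time for the unstimulated samples, whose handling may differ from the stimulated ones in more than the antibody. Nor do they give an age, the number of mice behind a sample, or whether equal names mean the same mouse. The p-values therefore measure the spread between these samples, which may be partly technical. YFP marks cells that had expressed the reporter by 6 h, so the YFP- samples were stimulated cells without detected reporter and not an untreated control.

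Chemokines are small secreted proteins that bind G-protein-coupled receptors on leukocytes and direct their migration. NK cells are among the lymphocytes that release chemokines together with interferon gamma after an activating receptor is engaged. Ccl3, Ccl4 and Ccl5 encode inflammatory chemokines that attract monocytes and T cells, and Ccl3 and Ccl5 bind Ccr1. Ccl9 also encodes a ligand of Ccr1, Ccl1 the ligand of Ccr8, and Xcl1 the ligand of Xcr1, a receptor carried by the dendritic cells that cross-present antigen. Ccl5 differs in its usual pattern, because resting NK cells and memory T cells keep its mRNA before stimulation.

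Library totals ran from 32.1 to 54.2 M reads. At this depth 3 reads correspond to 0.0553 to 0.0933 CPM, the unit used below, which scales reads to the library total. The lowest read number for any member was 107, for Ccl9 in an unstimulated library. Reads on mitochondrial mRNAs took 0.292% to 0.484% of the unstimulated, 0.310% to 0.517% of the YFP- and 0.170% to 0.214% of the YFP+ libraries, so the YFP+ range lay below both others. Their part in the differences between stimulated groups was not tested. Reads on rRNA-like features took 27.4% to 35.3% of the unstimulated libraries, 15.9% to 30.3% of the YFP- libraries and 13.7% to 29.8% of the YFP+ libraries. Ifng, the gene under the reporter, was at 3.66 to 4.19 CPM in unstimulated, 36.6 to 54.5 CPM in YFP- and 304 to 343 CPM in YFP+ libraries, and the 3 ranges did not overlap. Each of the 10 NK cell markers (Ncr1, Nkg7, Klrk1 and others) was detected in every library, the lowest value being 29.0 CPM for Tbx21. Among markers of other cells that make the same chemokines, 5 of 8 for macrophages and monocytes were under 1 CPM in every library. For T cells this held for 3 of 8. The summed macrophage and monocyte list, most of it Cd68, was at 53.6 to 61.4 CPM in unstimulated, 27.9 to 44.9 CPM in YFP- and 14.9 to 24.1 CPM in YFP+ libraries. The summed T cell list ran from 198 to 283, from 293 to 362 and from 346 to 409 CPM, most of it Trbc2, a transcript that NK cells also carry, while Cd4, Cd8a and Cd8b1 stayed under 0.194 CPM. On the same list Trac was at 6.83 to 8.47, 27.6 to 41.9 and 40.4 to 54.5 CPM, without overlap between unstimulated and stimulated libraries. Cd3g was at 30.9 to 79.4, 24.4 to 41.7 and 11.7 to 31.9 CPM, and Cd3d at 14.2 to 25.9, 12.8 to 20.6 and 7.25 to 13.8 CPM. The summed dendritic cell list was at 84.4 to 98.5, 40.6 to 53.0 and 15.7 to 25.7 CPM, most of it H2-Ab1 in the unstimulated libraries (80.9 to 94.7, 20.9 to 31.4 and 8.62 to 12.2 CPM), with Flt3, Clec9a and Siglech under 0.185 CPM. Zbtb46 on that list went the other way from unstimulated cells, at 1.33 to 1.76, 13.3 to 17.4 and 5.19 to 11.3 CPM. Basophil and mast cell markers summed to 12.6 to 27.8, 9.42 to 24.8 and 16.5 to 27.5 CPM, most of it Mcpt8. B cell markers summed to at most 4.19 CPM and neutrophil markers to at most 0.868 CPM, with S100a9 at 0 reads throughout. Their part in the chemokine levels was not tested.

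Of the 6 genes, 5 lie on chromosome 11 and Xcl1 lies on chromosome 1 (GRCm38, GENCODE M21 models). Ccl5 (chr11:83525778-83530518), Ccl9 (chr11:83572919-83578636) and Ccl3 (chr11:83647844-83649355) are on the minus strand, and Ccl4 (chr11:83662584-83664683) is on the plus strand, 13.2 kb from Ccl3. The Ccl1 model (chr11:82176657-82305690, minus strand) holds 12 merged exons, and its upstream end lies far from the start that RefSeq gives. Xcl1 (chr1:164931644-164935527, minus strand) shares exonic bases with the antisense gene Gm20743, and the library kit does not mark strand, so reads of the pair cannot be told apart.

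The 250 bases before the start site are printed for the members that RefSeq's promoter table (GRCm38.p6) holds, because these genes moved together and their upstream sequence lets a reader look for shared letters. RefSeq windows matched 4 of the 6 members, without Ccl4 and Ccl5. Of the bases printed for Xcl1, 5 fall in the first exon of the GENCODE model. Sequences run 5′ to 3′ on the gene's strand, and capitals mark every match, on either strand, to 6 motifs: TATAAA (core promoter element bound by TBP), GGAAA (core bound by NFAT), TGANTCA (AP-1), TGTGGT (RUNX), GGTGTGA (T-box factors) and the NF-kappaB consensus.
Ccl1, chr11:82179813-82180062, minus strand: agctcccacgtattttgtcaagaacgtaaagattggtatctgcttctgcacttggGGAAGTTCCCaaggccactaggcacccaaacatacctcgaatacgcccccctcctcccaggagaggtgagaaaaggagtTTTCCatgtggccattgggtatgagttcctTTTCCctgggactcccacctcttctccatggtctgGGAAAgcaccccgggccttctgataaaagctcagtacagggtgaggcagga
Ccl3, chr11:83649379-83649628, minus strand: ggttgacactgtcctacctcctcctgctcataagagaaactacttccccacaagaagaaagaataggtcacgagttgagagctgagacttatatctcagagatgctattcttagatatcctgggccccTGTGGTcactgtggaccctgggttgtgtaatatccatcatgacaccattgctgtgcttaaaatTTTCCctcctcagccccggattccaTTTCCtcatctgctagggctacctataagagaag
Ccl9, chr11:83578637-83578886, minus strand: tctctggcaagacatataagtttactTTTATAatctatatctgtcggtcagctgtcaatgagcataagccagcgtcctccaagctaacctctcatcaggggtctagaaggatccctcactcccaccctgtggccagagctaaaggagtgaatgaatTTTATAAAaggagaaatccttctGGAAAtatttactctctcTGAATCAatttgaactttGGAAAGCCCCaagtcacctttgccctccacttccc
Xcl1, chr1:164935523-164935772, minus strand: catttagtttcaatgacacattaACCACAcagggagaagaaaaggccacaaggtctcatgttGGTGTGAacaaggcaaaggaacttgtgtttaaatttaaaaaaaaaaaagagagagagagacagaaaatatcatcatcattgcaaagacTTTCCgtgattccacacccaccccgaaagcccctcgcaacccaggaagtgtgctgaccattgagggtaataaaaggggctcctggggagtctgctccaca
The NFAT core was the 1 motif found in all 4 windows, with 3 matches in Ccl1, 2 in Ccl3, 2 in Ccl9 and 1 in Xcl1. It is also common elsewhere: 55.6% of the 32851 RefSeq windows of 300 bases held it. The NF-kappaB consensus matched once in Ccl1, from base -195 to -186, and once in Ccl9, from -35 to -26, where it overlaps an NFAT core, and 5.0% of all windows held it. TGANTCA matched once, in Ccl9 at -53 to -47 (6.75% of windows). TGTGGT matched once each in Ccl3 and Xcl1 (14.0% of windows). The T-box letters matched in Xcl1 at -188 to -182 (3.33% of windows). TATAAA was found in Ccl9 only, in 3 matches of which 2 overlap each other at -94 to -87 (12.4% of windows). These matches describe letters, and binding was not measured.

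Ccl3 and Ccl4, 2 neighbouring genes of inflammatory chemokines, were far higher after stimulation and higher again in YFP+ cells. Ccl3 was at 77.8, 71.7, 71.0 and 85.0 CPM in unstimulated f2, m2, m3 and m4, at 3743, 3661, 3077 and 4597 CPM in the YFP- libraries and at 11362, 10359, 12056 and 11708 CPM in the YFP+ libraries. No 2 groups overlapped, and the distance between groups was many times the spread inside them. In limma's fit the log2 difference of YFP- over unstimulated cells was 5.61 (SE 0.12, adjusted p = 3.1e-12), and that of YFP+ over YFP- cells was 1.61 (SE 0.12, adjusted p = 2.5e-06). Ccl4 was at 407, 358, 342 and 493 CPM in the unstimulated libraries, at 11356, 11082, 9909 and 15525 CPM in YFP- and at 27722, 26193, 27807 and 33922 CPM in YFP+ libraries. Again no groups overlapped. The difference was 4.90 (SE 0.15, adjusted p = 1e-10) for YFP- over unstimulated and 1.29 (SE 0.15, adjusted p = 6.8e-05) for YFP+ over YFP- cells. Ranked by mean CPM among all features, Ccl4 stood at place 239 before stimulation, 7 in the YFP- group and 4 in the YFP+ group. In these bulk samples more cells with the transcript and more transcript per cell cannot be told apart.

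Ccl5, which encodes a chemokine for T cells and monocytes, was abundant before stimulation and moved least. Its values were 1118, 1260.3, 962 and 2229 CPM in unstimulated, 2574, 1974, 1556 and 3379 CPM in YFP- and 1704, 1614, 1877 and 2875 CPM in YFP+ f2, m2, m3 and m4. The groups overlapped in every comparison, and sample m4 was the highest in each. Ccl5 was higher in YFP- than in unstimulated cells by 0.79 on the log2 scale (SE 0.28, adjusted p = 0.0308, limma). The YFP- sample was the higher in 4 of 4 names. The call is lost without f2 (0.65, adjusted p = 0.159) or without m2 (0.83, adjusted p = 0.0827), and with rRNA-like reads removed from the totals (0.60, adjusted p = 0.0969). The same call is kept without m3, without m4 and with sample weights. YFP+ and YFP- cells differed by -0.21 (95% interval -0.82 to 0.39, adjusted p = 0.63), with 1 of 4 same-named samples higher in YFP+. YFP+ over unstimulated cells gave 0.57 (95% interval -0.03 to 1.18, adjusted p = 0.0917), with the YFP+ sample the higher in 4 of 4 names. These intervals do not show equal levels. Both lie below the intervals of Ccl3, Ccl4, Ccl9 and Xcl1 in the same comparisons. For Ccl1 this holds against unstimulated cells only, since its YFP+ over YFP- interval (0.27 to 1.08) overlaps that of Ccl5.

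Ccl1, whose product binds Ccr8, had the largest difference of the 6 between YFP- and unstimulated cells and the smallest of the 5 rising genes between YFP+ and YFP- cells. It was at 30.2, 27.1, 24.4 and 47.1 CPM in unstimulated, at 7019, 6202, 5625 and 8512 CPM in YFP- and at 9417, 10556, 12131 and 11243 CPM in YFP+ libraries. The lowest YFP+ library, f2, lay just above the highest YFP- library, m4, so the groups were separate but close. YFP- over unstimulated cells gave 7.76 (SE 0.19, adjusted p = 8.7e-12), and YFP+ over YFP- cells 0.68 (SE 0.19, adjusted p = 0.0193). The latter call passed the threshold narrowly: it is lost without f2 (0.76, adjusted p = 0.054), without m2 (0.64, adjusted p = 0.105), without m3 (0.53, adjusted p = 0.0935), with no filter (adjusted p = 0.203) and under quantile normalization (0.12, adjusted p = 0.695).

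Ccl9, a Ccr1 ligand gene, was the lowest of the 6 in every group but rose strongly. Unstimulated f2, m2, m3 and m4 had 3.57, 3.87, 2.79 and 3.30 CPM, the YFP- libraries 251, 199.99, 222 and 347 CPM, and the YFP+ libraries 695, 624, 671 and 889.9 CPM. No groups overlapped. The log2 differences were 6.21 (SE 0.18, adjusted p = 5.4e-11) and then 1.52 (SE 0.18, adjusted p = 7e-05).

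Xcl1, the Xcr1 ligand gene, was at 45.2, 38.4, 45.0 and 68.0 CPM in unstimulated, 2006, 2159.8, 2181 and 3152 CPM in YFP- and 5263, 5987, 7273 and 7834 CPM in YFP+ libraries. The 3 groups stood apart. YFP- over unstimulated cells differed by 5.6 (SE 0.19, adjusted p = 2.7e-10) and YFP+ over YFP- cells by 1.48 (SE 0.19, adjusted p = 0.00014).

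**Figure D1:**
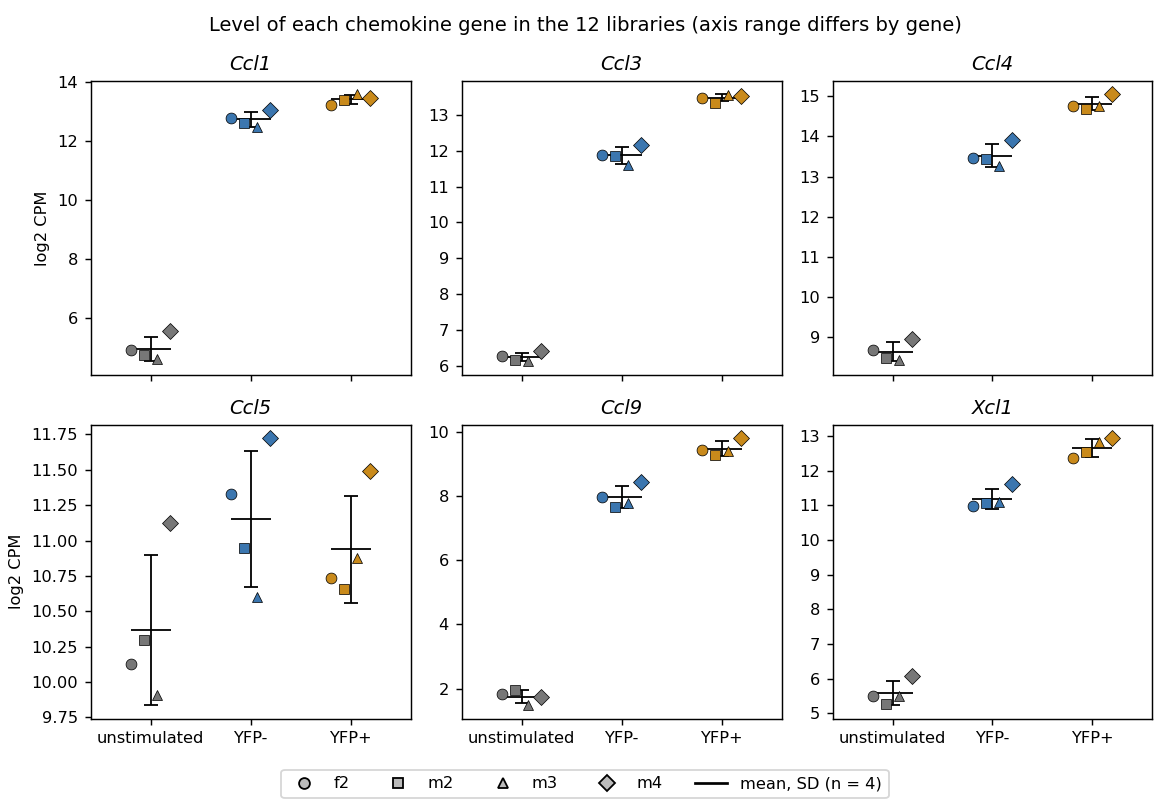
Level of each member in log2 CPM (vertical axis, its range differing by gene) in unstimulated, YFP- and YFP+ libraries; symbols mark the sample names, and bars the mean and SD of 4 libraries. The groups are separate for Ccl1, Ccl3, Ccl4, Ccl9 and Xcl1 and overlap for Ccl5, where m4 is highest in each group.

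Counted over the set, 6 of 6 members were called higher in YFP- than in unstimulated cells, against 30.2% of the 12364 genes tested (limma, adjusted p under 0.05). The members' median log2 difference was 5.61, and that of all genes tested was 0.14. Between YFP+ and YFP- cells 5 of 6 members were called higher, against 3.28% of genes, with a median of 1.38 beside -0.19 over all genes. That second background depends on scaling: 405 genes were called higher and 2286 lower as deposited, 1505 and 1491 when each sample was centred on its median, 1170 and 1680 after trimmed-mean scaling, and 1163 and 1430 after quantile normalization. Centring moved the median of all genes by more than 0.1, from -0.19 to 0.07. Relative to the median of all genes the members' calls in this comparison were the same 5 under centring and trimmed-mean scaling, and 4 under quantile normalization, where Ccl1 was not called (0.12, adjusted p = 0.695). Between YFP+ and unstimulated cells 5 of 6 were called higher, against 27.5% of genes, with medians of 7.15 and -0.03. The 5 genes without Ccl5 had groups that did not overlap in all 3 comparisons, whereas 30.9%, 4.31% and 24% of all genes did not overlap and were higher in the first group. The 3 comparisons share samples, so their values are not independent of each other.

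**Figure D2:**
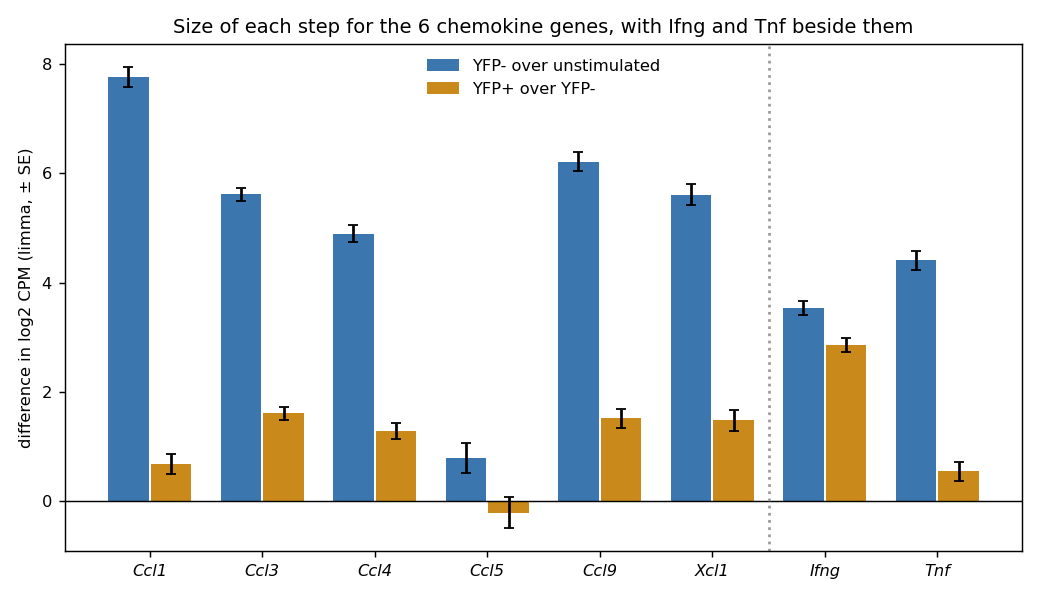
Difference in log2 CPM from limma (bars, ± SE) for YFP- over unstimulated (blue) and YFP+ over YFP- cells (orange), for the 6 members and, right of the dotted line, Ifng and Tnf. Ccl1 has the tallest blue bar (7.76) and a short orange one (0.68), Ccl3, Ccl4, Ccl9 and Xcl1 have orange bars of 1.29 to 1.61, and Ifng has one of 2.86.

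The reporter split the cells on Ifng, so a large gap in Ifng between YFP+ and YFP- cells follows from the sort itself. Shares of other genes beside that of Ifng are descriptions for this reason. Mean Ifng in YFP- cells was 13.9% of its mean in YFP+ cells, against 33.1% for Ccl3, 35.4% for Ccl9, 36.0% for Xcl1, 41.4% for Ccl4 and 63.1% for Ccl1. Tnf, which encodes a cytokine that NK cells also release, stood at 67.9% and Csf2, which encodes a growth factor for myeloid cells, at 62.5%. Exonic bases of Ifng are shared with Gm49751 and those of Csf2 with Gm12223, so some of their reads may belong to these genes. Within each library the log2 ratio of Ccl1 to Ifng averaged 2.99 ± 0.34 (SD, n = 4) in unstimulated, 7.22 ± 0.28 in YFP- and 5.04 ± 0.22 in YFP+ cells, and no 2 groups overlapped. For Ccl4 over Ifng it was 6.66 ± 0.15, 8.02 ± 0.29 and 6.45 ± 0.15, and there the unstimulated and YFP+ ranges overlapped. A YFP- library held more of all 5 rising chemokine transcripts per Ifng transcript than a YFP+ library did, a direction that sorting on Ifng favours by itself.

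Together the 6 genes took 0.195% ± 0.066 (SD, n = 4) of unstimulated, 2.76% ± 0.56 of YFP- and 6.04% ± 0.61 of YFP+ libraries. The highest library was YFP+ m4 at 6.85% and the lowest unstimulated m3 at 0.145%. After removal of rRNA-like reads from the totals the shares were 0.286%, 3.5% and 7.71%. The makeup of these reads changed as well. Ccl5 supplied 70.2% ± 4.7 of them in unstimulated, 8.44% ± 1.31 in YFP- and 3.30% ± 0.60 in YFP+ cells. Ccl4 supplied 21.3% ± 3.4, 43.4% ± 0.8 and 47.8% ± 2.1, the largest part after stimulation. Ccl1 held 1.66% ± 0.11, 24.9% ± 0.9 and 18.0% ± 1.6, so it was the member whose part was largest in YFP- cells and smaller in YFP+ cells. Ccl3 held 4.13%, 13.7% and 18.9%, Xcl1 2.58%, 8.63% and 10.8%, and Ccl9 0.184%, 0.921% and 1.19%.

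**Figure D3:**
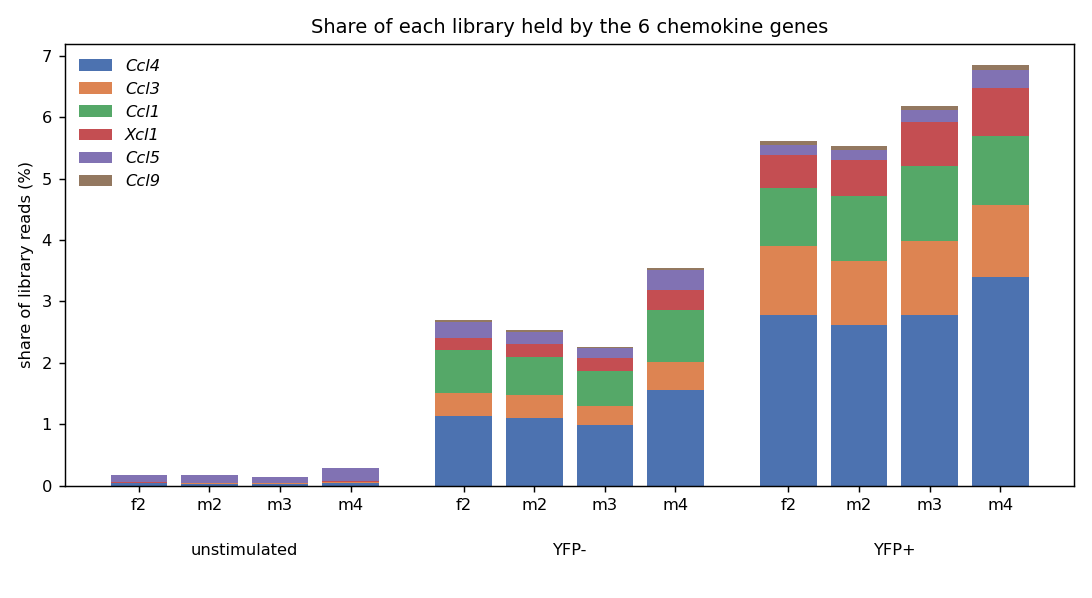
Share of library reads (vertical axis, percent) held by each of the 6 genes in each of the 12 libraries, stacked. Ccl5 makes up most of the unstimulated bars, all under 0.3%, while Ccl4 is the largest block in each YFP- and YFP+ bar.

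Ratios between members within a library do not depend on the library total. Of the 15 pairs of members, those whose ratios overlapped in all 3 comparisons were Ccl3 over Xcl1 and Ccl9 over Xcl1. The log2 ratio of Ccl3 over Xcl1 was 0.67 ± 0.25 (SD, n = 4) in unstimulated, 0.68 ± 0.19 in YFP- and 0.80 ± 0.22 in YFP+ libraries, although both genes differed by over 7 on the log2 scale between the outer groups (7.22 for Ccl3 and 7.08 for Xcl1). Ccl3 over its neighbour Ccl4 was at -2.38 ± 0.12, -1.66 ± 0.08 and -1.34 ± 0.14, and here no 2 groups overlapped. That order of the stimulated groups turned under quantile normalization, where YFP+ over YFP- cells gave a log2 difference of 1.04 for Ccl3 and 1.15 for Ccl4. Ccl1 over Ccl3 was at -1.29 ± 0.30, 0.86 ± 0.07 and -0.07 ± 0.14, also without overlap, so the YFP- libraries stood above both other groups.

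**Figure D4:**
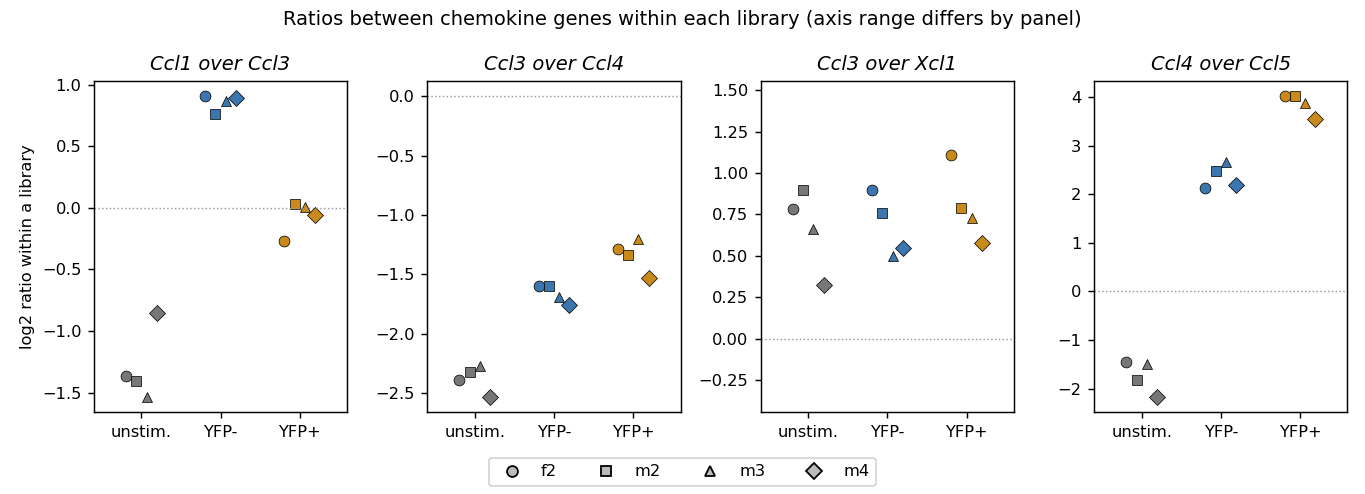
Log2 ratio of 2 members within each library (vertical axis, its range differing by panel) in the 3 groups; symbols mark sample names. Ccl1 over Ccl3 is highest in YFP- libraries (mean 0.86), Ccl3 over Ccl4 steps up from group to group, Ccl3 over Xcl1 overlaps in all groups, and Ccl4 over Ccl5 passes from below 0 to above 3.

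Levels between genes were compared per kilobase of merged exon. In unstimulated cells Ccl5 came first with 1451 ± 595 CPM per kb (SD, n = 4), followed by Ccl4 with 606 ± 102. Ccl3 (99.7 ± 8.5) and Xcl1 (94.0 ± 24.8) overlapped, and Ccl1 (13.6 ± 4.3) and Ccl9 (1.11 ± 0.15) came last. In YFP- cells the order was Ccl4 (18134 ± 3717), Ccl3 (4921 ± 818) and Xcl1 (4541 ± 1001), which overlapped, then Ccl1 (2887 ± 529) and Ccl5 (2470 ± 824), which overlapped too, and Ccl9 (83.8 ± 21.3). In YFP+ cells Ccl4 (43805 ± 5185) led, Ccl3 (14845 ± 956) and Xcl1 (12598 ± 2246) overlapped, and Ccl1 (4574 ± 483), Ccl5 (2102 ± 606) and Ccl9 (237 ± 38) followed without overlap. The long Ccl1 model, with 2.37 kb of merged exons, lowers its value per kb if the distant exons carry few reads, which the table cannot show.

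Sample name and level went together across members. In 15 of the 18 sets of a member and a group, m4 had the highest value; the exceptions were Ccl1 and Ccl3 in YFP+ cells, where m3 was highest, and Ccl9 in unstimulated cells, where m2 was. The m4 libraries had rRNA-like shares of 35.3%, 20.0% and 23.1%, the highest of the group in unstimulated cells only, and the part of library makeup in the m4 values was not tested. After each group's mean was removed, the members' deviations over the 12 libraries correlated with Pearson's r from 0.42 (Ccl9 with Xcl1 and with Ccl1) to 0.92 (Ccl4 with Ccl5). These points share library totals and group means, and the values are descriptions.

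The genes whose log2 CPM over the 12 samples was most like a member's were sought among 8077 protein-coding genes with a mean log2 CPM of at least 2. Ccl1 was most like Bcl2a1d and Bcl2a1a (r = 0.997 each), near-identical copies of an anti-apoptotic gene between which reads may be split, and Srgn (r = 0.995), which encodes the granule proteoglycan serglycin. For Ccl3 these were Hax1 (0.995), Gpt2 (0.994) and Tacc2 (0.994). Gpt2 and Tacc2 also followed for Ccl4 and Xcl1, behind Cd9, which encodes a tetraspanin (0.995 and 0.993). Ccl9 was most like Eif4ebp1, which encodes a translation repressor (0.995), Hax1 (0.995) and Eef1e1 (0.994). Ccl5 had lower values, the highest being 0.900 with Mrpl32, a mitochondrial ribosomal protein gene, 0.874 with Rpl13 and 0.859 with Zfp560. With group means removed, Ccl5 and Ccl4 were both most like Tnfsf10, the gene of the death ligand TRAIL (0.959 and 0.945). Xcl1 was then most like Tef (0.921), Ccl3 like Icam2 (0.881), Ccl1 like Foxo3 (0.888) and Ccl9 like Mettl23 (0.852). All these r are over 12 libraries in 3 groups and carry no test.

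Outside the set, chemokine transcripts were scarce. The list of other chemokine genes held 33 symbols, which matched 39 features, and 8 passed the filter of log2 CPM above 0 in at least 4 samples. Of the 31 that did not pass, 10 had 0 reads in every library and the highest value in any library was 1.66 CPM, for Ccl12. Between YFP- and unstimulated cells 5 of the 8 were called higher (Cx3cl1, Cxcl2, Cxcl10, Cxcl16 and Cxcl17) and 0 lower, against 30.2% of all genes called higher and 20.9% lower. The 5 were all low: the highest value among them in a YFP- library was 4.95 CPM, for Cxcl10. All 5 had log2 CPM below 0 in every unstimulated library, so they passed the filter through stimulated libraries alone. The filter thus favoured calls of higher over unstimulated cells, and these counts are descriptions only. Between YFP+ and YFP- cells 1 was called higher (Cxcl17) and 2 lower (Cxcl10 and Ccl25), against 3.28% of all genes called higher and 18.5% lower. Between YFP+ and unstimulated cells 4 of these 5 were called higher, with the same limit, and 1 other gene, Ccl25, lower. Of all genes 27.5% were called higher and 33.3% lower.

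Cxcl10, which encodes an interferon-induced ligand of Cxcr3, moved against the 5 rising members between the stimulated groups. It was at 0.708, 0.447, 0.954 and 0.493 CPM in unstimulated, 4.90, 4.95, 3.94 and 4.18 CPM in YFP- and 0.0409, 0.461, 0.801 and 0.591 CPM in YFP+ f2, m2, m3 and m4. Every YFP- library was above every other library, and the YFP+ and unstimulated ranges overlapped. The log2 differences were 2.82 (SE 0.66, adjusted p = 0.00293) for YFP- over unstimulated and -3.75 (SE 0.66, adjusted p = 0.00126) for YFP+ over YFP- cells. The second value leans on YFP+ f2, which had 2 reads: it was -2.82 without the samples named f2 and -1.92 with a pseudocount of 1 CPM, and was called in both. Cxcl10 shares exonic bases with the antisense gene Art3, so its reads are uncertain in the same way as those of Xcl1, as are those of Cxcl16 (Zmynd15), Ccl25 (Elavl1) and Ccl27a (Il11ra1). Cxcl17, which encodes a mucosal chemokine, had 0 reads in all unstimulated libraries, 3.54, 1.99, 0.737 and 1.14 CPM in YFP- and 10.97, 7.80, 5.75 and 6.66 CPM in YFP+ libraries. Against 3 reads per unstimulated library, its mean CPM was at least 22.8-fold higher in YFP- and at least 95.8-fold higher in YFP+ cells. These limits hold for the means, and YFP- m3, at 0.737 CPM, lay below its group's mean. YFP+ over YFP- cells gave 2.27 (SE 0.45, adjusted p = 0.00276). Ccl25 was lower in YFP+ than in YFP- cells by 0.91 on the log2 scale (1.47 ± 0.36 against 2.79 ± 0.72 CPM, adjusted p = 0.0288), a call lost under 8 of the alternatives, among them trimmed-mean scaling and each single sample name left out except m3.

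Of the receptor genes for the members' products, Xcr1 passed the filter and is described here. Xcr1 was at 1.81, 1.84, 0.828 and 1.70 CPM in unstimulated, 6.18, 4.56, 3.85 and 4.55 CPM in YFP- and 1.82, 2.18, 1.41 and 1.87 CPM in YFP+ libraries. It was higher in YFP- than in unstimulated cells (1.67, SE 0.27, adjusted p = 2e-04) and lower in YFP+ than in YFP- cells (-1.39, adjusted p = 0.0026), so the receptor and its ligand gene Xcl1 went opposite ways at the second step. Of the other genes on the dendritic cell list, Zbtb46 was also highest in the YFP- libraries, while H2-Ab1 was highest in the unstimulated libraries. Flt3, Clec9a, Siglech and Cd209a were at most 0.370 CPM in any library. The part of other cells in the Xcr1 level was not tested.

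Other genes near the members on chromosome 11 moved by less than Ccl3, Ccl4 and Ccl9 did. GENCODE places 14 other protein-coding genes within 100 kb of a member, and 7 passed the filter. Of these 7, 3 were called higher between YFP- and unstimulated cells, 0 between YFP+ and YFP- and 2 between YFP+ and unstimulated, and 0 were called lower in any, where 30.2%, 3.28% and 27.5% of all genes were called higher. The largest called difference among them was 1.34 (Gas2l2, YFP+ over unstimulated), against 4.90 or more for Ccl3, Ccl4 and Ccl9 in either comparison with unstimulated cells. Ccl6, a chemokine gene that lies between Ccl9 and Ccl3, 9.25 kb from Ccl9, was at 0.105 to 1.05 CPM in unstimulated, 0.903 to 1.38 CPM in YFP- and 0.286 to 1.33 CPM in YFP+ libraries, and was not called in any comparison (95% interval of YFP- over unstimulated -0.44 to 2.34). Heatr9, 3.60 kb from Ccl5 on the other side, was not called either. Among the neighbours of Ccl1, the chemokine genes Ccl8 and Ccl12 did not pass the filter.

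**Figure D5:**
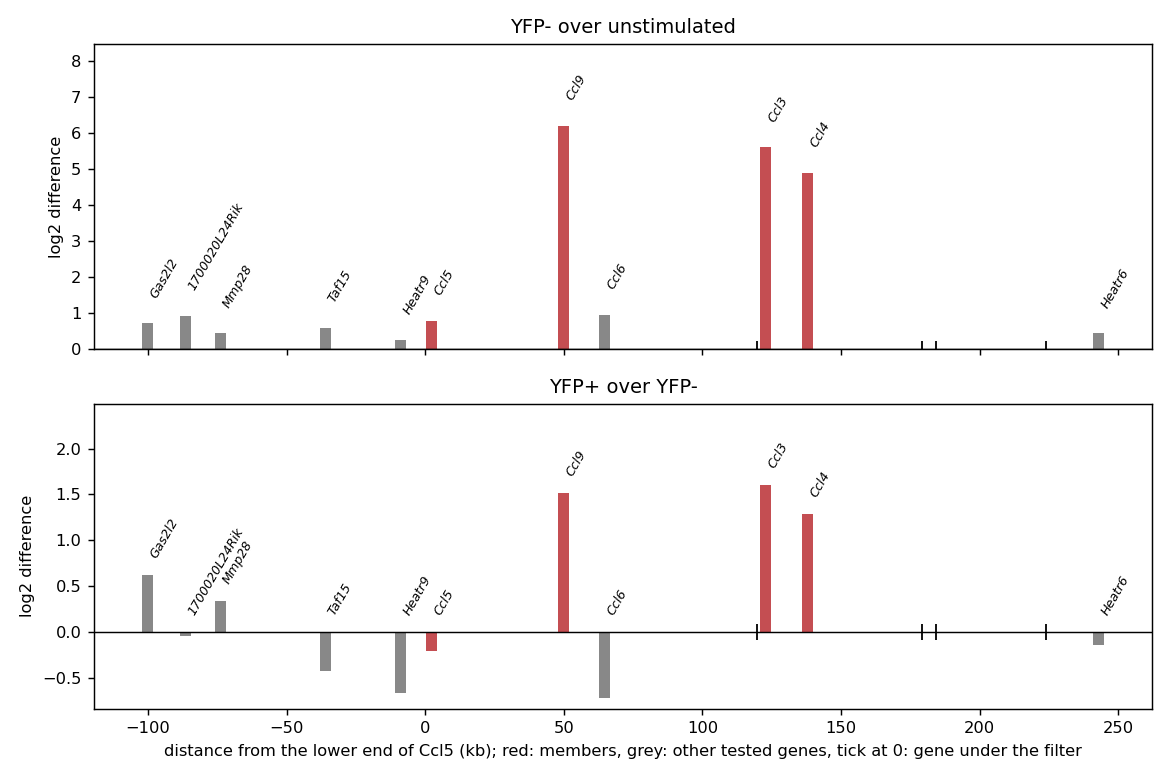
Log2 difference (bars) of the genes around Ccl5, Ccl9, Ccl3 and Ccl4, placed by distance in kb from the lower end of Ccl5, for YFP- over unstimulated (top) and YFP+ over YFP- cells (bottom). Members are red, other tested genes grey, and ticks at 0 mark genes under the filter; Ccl9, Ccl3 and Ccl4 stand above Ccl6, which lies between them.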

How the data were processed

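RNA from 12 samples of mouse NK cells was made into cDNA with the SMARTer Ultra Low kit from 10 ng of total RNA and read in pairs of 150 bases, per the labels' protocols. The submitters' processing notes name bcl2fastq, STAR 2.7.9a, featureCounts 2.0.3 and GRCm38, without settings. Values were deposited in 1 table as moderated log2 CPM, per the file headers, that is reads relative to the library total, with a prior count, on a log2 scale. Of 55774 lines, 287 repeated another line and were dropped. Whole reads followed from 100% of the values (tolerance 1e-06 in log2) and gave the CPM and library totals printed here; there were 0 columns of other samples.

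Differences came from limma 3.58.1 (R 4.3.3; all 12 samples, 1 coefficient per group, intensity trend), over the 12364 genes with log2 CPM above 0 in at least 4 samples, with Benjamini-Hochberg adjustment over all of them and a threshold of 0.05. The fit was tested on simulated data. Sums, ratios and orders are means ± SD without a test. Fold changes of low genes depend on the prior. Exons came from GENCODE M21, which matched 55141 features, and promoter windows from RefSeq. Counting intervals and limits at 0 reads cover counting error only, since the reads carry no molecular identifiers.

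Genes named are the 6 members, listed chemokine and receptor genes, 3 cytokines, neighbours within 100 kb and the 3 genes most like each member. The members, lists and rules were chosen with earlier results of these data known. Alternatives changed the filter, prior, scaling, weights, library totals, samples in the fit and replicate block, or left out 1 sample name. Some listed genes are not reported here.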

Additional observations from a re-analysis of the deposited data

Results flagged for a closer look

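Of 60 sets of 4 values examined (18 of them from members), 2 held a sample whose gap to the nearest other, as a share of the group's range, passed Dixon's 95% limit for 4 samples; chance gives about 1 in 20, or 3.0 sets. Neither was a member. Ccl27a in unstimulated cells was highest in m4, at 1.88 log2 CPM against 1.71 to 1.73 in the others (share of the range 0.845). Xcr1 in unstimulated cells was lowest in m3, at -0.25 log2 CPM against 0.77 to 0.89 (share 0.896).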

How the results depend on the processing

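Under every alternative run, Ccl3, Ccl4, Ccl9 and Xcl1 stayed called higher in all 3 comparisons, and Ccl1 in both comparisons with unstimulated cells. Over these runs the YFP+ over YFP- difference ranged from 1.04 to 1.87 for Ccl3, 1.15 to 1.55 for Ccl4, 1.40 to 1.78 for Ccl9, 1.35 to 1.74 for Xcl1 and 0.12 to 0.94 for Ccl1. The members' median difference moved to 1.09 for YFP+ over YFP- and 6.68 for YFP+ over unstimulated cells under quantile normalization, and to 1.64 for YFP+ over YFP- under centring. Leaving rRNA-like features out of the totals moved the summed level to 0.286%, 3.5% and 7.71%. Ccl5 was also lost for YFP- over unstimulated cells with no filter (0.79, adjusted p = 0.271), quantile normalization (0.54, 0.118), centring (0.65, 0.0835) and trimmed-mean scaling (0.67, 0.0662). Its YFP+ over YFP- difference reversed to 0.050 under centring. For YFP+ over unstimulated cells it passed with sample weights (0.57, adjusted p = 0.0446) and without m4 (0.64, 0.0114).

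With no filter 8 of 39 other chemokine features were called for YFP- over unstimulated and 9 of 39 for YFP+ over unstimulated cells. The main fit called 5 of 8 in each. Of all 55487 features, 5183 and 7345 were called with no filter. With the filter at log2 CPM above 2 the other chemokine genes called were 2 of 2, 1 of 2 and 2 of 2, in the order of the comparisons used above. Of all 9598 genes then tested, 5317, 2294 and 6072 were called. The receptors called were then 1 of 1 for YFP- over unstimulated and 0 of 1 for YFP+ over YFP- cells. Leaving out single names gave 1 to 2 of 2 receptors called for YFP- over unstimulated cells. The count of all genes called for YFP+ over YFP- cells was 2691, and 1583 with no filter, 1571 without m2 and 1643 without m4. Depth limits the chemokine genes under the filter, where 3 reads equal 0.0553 to 0.0933 CPM, and not the members. Weighting the recovered reads with voom called 6442, 2698 and 7449 genes.

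Signs turned only for differences that were not called. Without single names, Ccl27a ran from -0.099 to 0.12 (YFP- over unstimulated), -0.20 to 0.18 (YFP+ over YFP-) and -0.080 to 0.076 (YFP+ over unstimulated), Ccl25 from -0.32 to 0.26 (YFP- over unstimulated), and for YFP+ over unstimulated Ccl6 from -0.15 to 0.63 and Cxcl10 from -1.36 to 0.016. Under centring, trimmed-mean scaling and removal of rRNA-like reads Ccl27a turned to -0.081, -0.053 and -0.12 (YFP- over unstimulated). Under quantile normalization, centring and trimmed-mean scaling it turned to 0.27, 0.18 and 0.11 (YFP+ over YFP-) and to 0.32, 0.099 and 0.055 (YFP+ over unstimulated). With sample weights Ccl27a turned to 0.039 and Ccl6 to -0.026 (both YFP+ over unstimulated), and Ccl25 to 0.076 (YFP- over unstimulated). The cause of these changes was not tested.

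Same-named samples did not deviate together in every pair: r ran from -0.06 to 0.10, 0.05 to 0.37 and -0.04 to 0.38 in the 3 comparisons, and 2, 6 and 4 of 8 samples correlated best with their own name, so a shared origin is not established. The fit with the replicate block called 6682, 3098 and 7774 genes against 6321, 2691 and 7522. With the block, Ccl5 passed for YFP+ over unstimulated cells (0.57, adjusted p = 0.00253), Tnf missed for YFP+ over YFP- (0.55, adjusted p = 0.054), and members called were 6, 5 and 6. Ccl5 also stayed called in that fit for YFP- over unstimulated cells (0.79, adjusted p = 0.00045).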
